A study of Mus musculus with 30 samples.

Results

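The subject is the 4 clusters of Hox genes in mouse cells before, during and after reprogramming to pluripotency. Members were all probes of the array whose gene symbol is Hoxa, Hoxb, Hoxc or Hoxd followed by a number, which gave 40 of the 26423 probes. They stand for 38 Hox genes, 10 of Hoxa, 10 of Hoxb, 9 of Hoxc and 9 of Hoxd. By paralog number, 11 were anterior (1 to 4), 11 middle (5 to 8) and 16 posterior (9 to 13). The 30 samples were chemically induced pluripotent stem cells (CiPSC, 11 samples), induced pluripotent stem cells (iPSC) made with the factors OSKM (2) or labelled SKM-FSK (2), the intermediates of days 12, 20 and 32 of chemical treatment (1 each), embryonic stem cells (ESC, 5), and the somatic starting cells (7).

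The somatic cells were mouse embryonic fibroblasts (MEF1, MEF2, MEF3 and WT MEF), neonatal fibroblasts (MNF), adult lung fibroblasts (MAF) and adult adipose-derived stem cells (ADSC), all untreated. WT MEF is titled wildtype, and the titles of CiPS WT1 and CiPS WT2 carry WT. CiPSC came from MEF (CiPS34, CiPS50, CiPS21, CiPS45, CiPS WT1, CiPS WT2 and a line labelled control), MNF (MNF CiPS7 and MNF CiPS1), MAF (MAF CiPS3) or ADSC (ADSC CiPS2). The labels give each CiPSC line a cocktail code: VC6TFMP+Z for CiPS34, VC6F+Z for CiPS50, VC6TFDBS+Z for CiPS21, FC6+Z for CiPS45, VC6TFMPS+Z for CiPS WT1, CiPS WT2 and ADSC CiPS2, VC6TF+Z for the control line, VC6TFS+Z for MNF CiPS7, VCT6FMDBR+Z for MNF CiPS1 and VC6TFDM+Z for MAF CiPS3. The intermediates carry VC6TF on day 12 and VC6TF+Z on days 20 and 32, the SKM-FSK lines carry F, and all iPSC came from MEF. ESC2 is line TT2 and the other ESC are line R1. The source of ADSC CiPS2 is given as ADSC by its title and cell line but as lung fibroblasts by another field of the labels; the title is followed here. Lines are single lines with 1 deposited value each, and all pluripotent cells were kept on mitomycin C-treated MEF feeders, while the somatic cells grew in DMEM with serum.

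Hox genes encode homeodomain transcription factors that give cells their position along the head-to-tail axis and along the limbs. Within a cluster, genes of low paralog number are used towards the head and genes of high number towards the tail, and the order on the chromosome follows the order of use. Fibroblasts of adult tissues keep the Hox pattern of the place they came from, a form of positional memory, while pluripotent cells hold the clusters silent under Polycomb.

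Promoters of 22 of the 38 genes were in the RefSeq table (build GRCm38.p6). Those of Hoxa5, Hoxc4 and Hoxd8 are shown for their levels in the starting populations. Of MNF, MAF and ADSC, Hoxa5 was highest in MAF, while Hoxc4 and Hoxd8 were lowest there. The promoter of Hoxb1 is shown because the test did not separate CiPSC or ESC from the somatic cells by its level. Each runs 5′ to 3′ from 250 bases before to 50 after an annotated start, which for Hoxc4 lies inside the gene as annotated. Capitals mark matches to AGGTCA, the hexamer bound by retinoic acid receptors, or to TGATNNAT, a site of Hox with Pbx, on either strand.
Hoxa5, chr6:52204538-52204837, minus strand: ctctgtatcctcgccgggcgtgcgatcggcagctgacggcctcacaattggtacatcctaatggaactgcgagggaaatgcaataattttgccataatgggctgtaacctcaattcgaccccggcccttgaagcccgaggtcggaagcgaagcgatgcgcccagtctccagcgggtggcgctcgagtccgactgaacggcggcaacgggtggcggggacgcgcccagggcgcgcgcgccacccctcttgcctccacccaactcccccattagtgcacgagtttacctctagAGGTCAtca
Hoxc4, chr15:103034145-103034444, plus strand: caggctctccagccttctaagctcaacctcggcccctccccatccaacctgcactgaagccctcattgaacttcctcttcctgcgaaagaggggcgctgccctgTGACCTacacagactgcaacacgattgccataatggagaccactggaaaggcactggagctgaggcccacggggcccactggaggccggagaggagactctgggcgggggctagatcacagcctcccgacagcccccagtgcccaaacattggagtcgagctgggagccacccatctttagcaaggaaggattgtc
Hoxd8, chr2:74704365-74704664, plus strand: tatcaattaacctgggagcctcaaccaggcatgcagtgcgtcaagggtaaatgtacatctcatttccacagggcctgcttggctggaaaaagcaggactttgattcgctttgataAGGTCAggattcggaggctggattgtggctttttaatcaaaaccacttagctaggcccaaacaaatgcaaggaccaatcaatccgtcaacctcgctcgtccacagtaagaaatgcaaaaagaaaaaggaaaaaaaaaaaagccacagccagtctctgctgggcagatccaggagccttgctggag
Hoxb1, chr11:96365508-96365807, plus strand: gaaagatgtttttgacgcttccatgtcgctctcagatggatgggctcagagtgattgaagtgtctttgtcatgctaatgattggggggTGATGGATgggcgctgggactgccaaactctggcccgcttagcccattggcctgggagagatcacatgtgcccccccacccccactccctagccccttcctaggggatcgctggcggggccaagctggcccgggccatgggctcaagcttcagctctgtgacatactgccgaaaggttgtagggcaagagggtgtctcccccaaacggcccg
AGGTCA was present in 7 of 24 Hox promoters (29.2%) and in 16.3% of all 32851 promoters of the table, and TGATNNAT in 4 of 24 (16.7%) and in 8.85% of all. TTTATNG, a site of the caudal factors, was in 2 of 24 (8.33%) and in 10.9% of all, and in none of the 4 printed. The Hox promoters held a median of 14.5 CG pairs, against 7 over all promoters. In the printed windows no 2 matches overlapped.

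The samples form 5 sets that the authors normalized separately, so every level is compared only within a set. Values are Cy5 intensities, 1 per sample, each standing for 2 or 3 replicate arrays per the design text, and the spread between those arrays is not given, so that the tests measure the spread between samples. Sample medians lay between 326 and 328 in set 1, between 357 and 359 in set 2, at 225 in set 3, between 346 and 348 in set 4 and at 110 in set 5. Sets 1 to 5 hold values for 19, 21, 23, 33 and 38 Hox genes; 17 genes had a value in all 5 sets and 5 only in set 5. Why a probe lacks values in a set is not given in the sources used here. Set 5 stood apart: over all probes the differences of MEF and ESC correlated with those of sets 1, 3 and 4 at r = 0.416, 0.400 and 0.341, against 0.768 to 0.853 among those 3 sets, and over the Hox probes at 0.412, 0.221 and 0.209, against 0.823 to 0.859. In set 5, 18.6% of values lay under 16, against at most 0.771% in the others. Results that rest on set 5 are therefore given with and without it. The summed intensity of the fibroblast list was higher in the somatic cells than in ESC in every set. It was 155000 in MEF1 against 1689 in ESC1, but 549600 in MEF2 against 69090 in ESC4 and 216500 in MEF3 against 23490 in ESC5. Not every marker followed, as Col1a1 read 76.2 in MEF2 and 93.75 in ESC4. A list of pluripotency genes summed to 3368 in MEF3, 120200 in the control line and 123800 in ESC5. In that list, Esrrb read 91, 25960 and 27780 in these 3 samples, but Sox2 only 28.2, 41.1 and 34.2.

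Most Hox genes that could be tested were lower in CiPSC than in the somatic cells, most of all the middle genes of the clusters. All 8 middle genes tested fell, with log2 differences of -2.68 to -4.14 (6.42-fold to 17.6-fold), as did 5 of 8 anterior and 3 of 8 posterior genes. Hoxc13, the gene at the posterior end of its cluster, rose 3.66-fold. In all, 16 of the 24 tested genes were called lower, 1 higher and 7 not called. Over all 16497 genes tested, 13.2% were called lower and 14.8% higher. A call needed a Benjamini-Hochberg adjusted p under 0.05 in limma and at least a 2-fold difference, in a fit of all 30 samples with cell class and set as terms and values under 16 raised to 16. Of the remaining 14 Hox genes, none had values in the 2 sets with both groups that the test required. The median log2 difference of the 24 was -1.71, against -0.11 over all genes. Without set 5, 14 of 22 were called lower and 1 higher, where 14.4% of all genes were called lower and 15.4% higher; Hoxb9 was no longer called and Hoxa10 and Hoxd4 could not be fitted. By cluster, 4 of 5 Hoxa, 5 of 7 Hoxb, 4 of 6 Hoxc and 3 of 6 Hoxd genes were called lower. In these bulk samples, fewer cells with a transcript and less of it per cell cannot be told apart. The intensities do not show whether a probe of 1 Hox gene also binds a paralog's transcript, which was not tested.

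**Figure D1:**
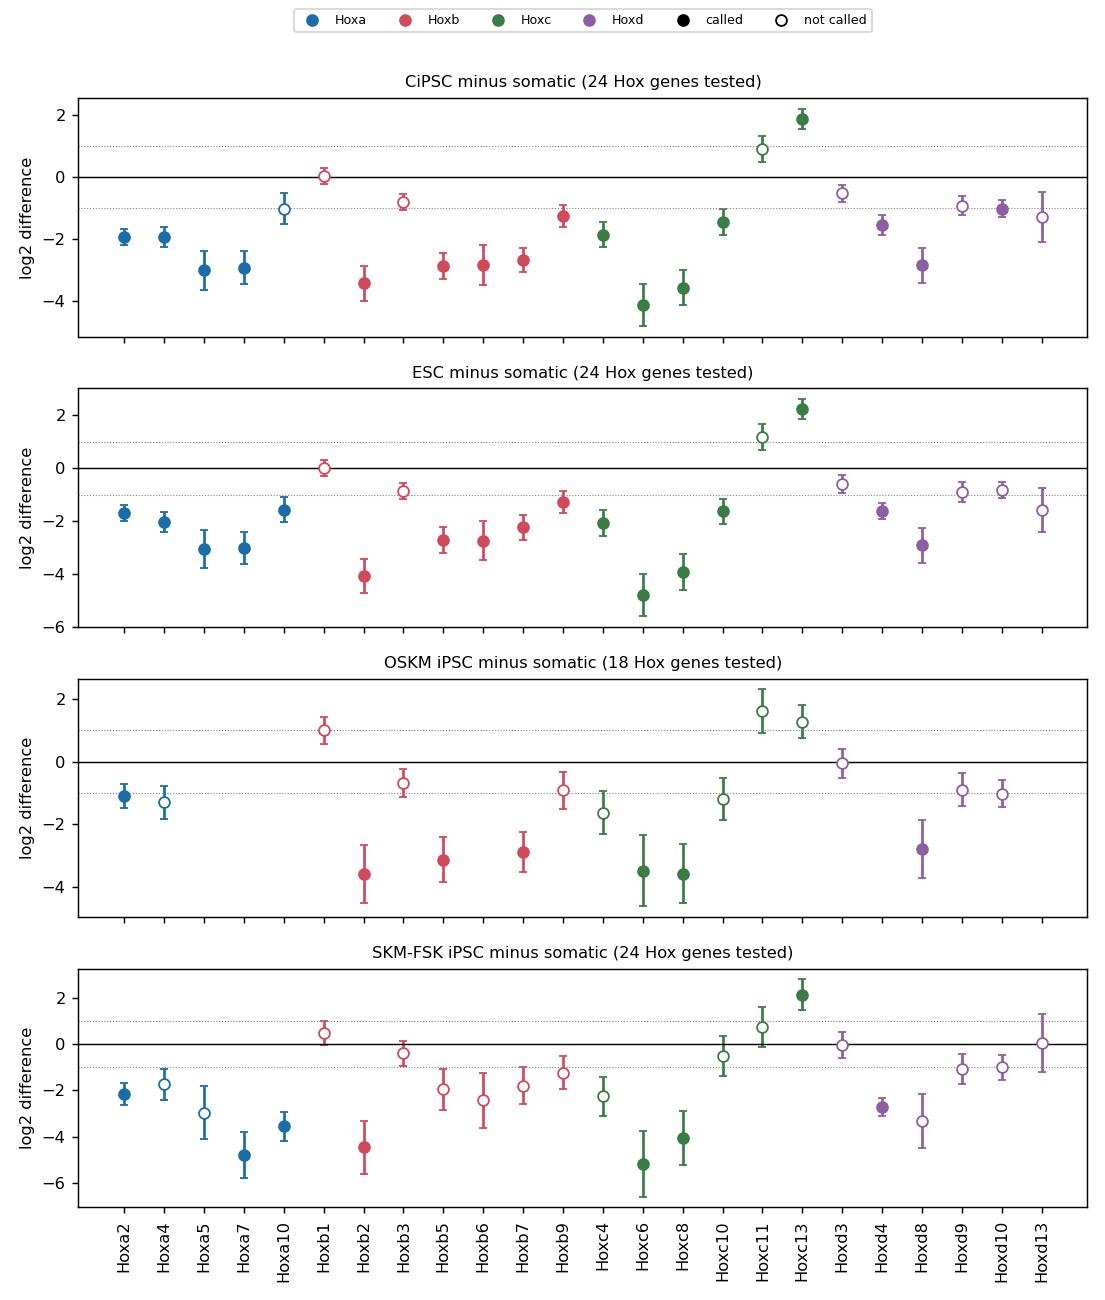
Fitted log2 differences (y axis) of the tested Hox genes (x axis, by cluster and paralog number) of CiPSC, ESC, OSKM iPSC and SKM-FSK iPSC against the somatic cells; bars are the standard error, filled points passed the call and dotted lines mark 2-fold. Hoxc6 lies lowest in the CiPSC and ESC panels, and Hoxc13 is the one filled point above 0 in the CiPSC, ESC and SKM-FSK panels.

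Hoxc6, which acts in the thoracic region, gave the largest difference. It read 92.8 to 166 in the 4 CiPSC lines of set 1, against 6326 in MEF1. In set 2 it read 106 to 171 in the 4 CiPSC lines, against 5786 in MNF, 92.2 in MAF and 11812 in ADSC. In set 3 it read 648 and 573 in CiPS WT1 and CiPS WT2, against 3352 in WT MEF, and in set 5 169 in the control line, against 5746 in MEF3. The lines were below the somatic cells of their set except against MAF, which read below all 4 lines of its set. The fitted difference was -4.14 (SE 0.69, limma adjusted p 4.94e-05), and -4.01 without set 5 (limma adjusted p 0.00033).

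Its neighbour Hoxc8 behaved alike. The lines of set 1 read 59.0 to 143, against 3298 in MEF1, and those of set 2 69.9 to 112, against 1869 in MNF, 72.0 in MAF and 4237 in ADSC. CiPS WT1 and CiPS WT2 read 358 and 323, against 2456 in WT MEF, and the control line 124, against 1443 in MEF3. By the probes used in the fit, both Hoxc genes were thus high in every somatic sample but the lung fibroblasts. The fitted difference of Hoxc8 was -3.58 (SE 0.57, limma adjusted p 3.19e-05). A second probe of Hoxc8, not used in the fit, gave smaller differences of MEF and ESC in each set. In set 2 that probe read 145 in MNF, 95.15 in MAF and 510 in ADSC, against 154.5 in ESC2, so by it MNF was not high.

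Hoxd8, a middle gene of the Hoxd cluster, read 60.4 to 223 in the lines of set 1, against 1677 in MEF1. In set 2 it read 78.0 to 427 in the lines, against 1584 in MNF, 68.9 in MAF and 1434 in ADSC. It read 169 and 149 in CiPS WT1 and CiPS WT2, against 2037 in WT MEF, and 93.3 in the control line, against 1770 in MEF3. Its fitted difference was -2.86 (SE 0.56, limma adjusted p 0.000309), and again MAF was the one somatic sample at or below the lines.

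The middle genes of Hoxa and Hoxb followed the same direction with another order of starting cells. Hoxa5, which is needed for lung development, read 89.3 to 165 in the CiPSC lines of set 2, against 316 in MNF, 8189 in MAF and 3444 in ADSC. In set 3 it read 94.3 and 99.0 in CiPS WT1 and CiPS WT2, against 307 in WT MEF, and its fitted difference was -3.02 (SE 0.62). Here MAF was the highest somatic sample and MNF the lowest. Hoxb5 read 65.7 to 128 in the lines of set 2, against 812 in MNF, 5294 in MAF and 758 in ADSC, with a fitted difference of -2.88 (SE 0.43). Hoxb6 read 21.7 to 43.8 in those lines, against 102 in MNF, 1693 in MAF and 811 in ADSC, with a fitted difference of -2.84 (SE 0.65). The lines of set 2 lay below all 3 populations for these 3 genes. Hoxa7 (-2.94, SE 0.54) and Hoxb7 (-2.68, SE 0.39) were called as well, but in set 5 the control line differed from MEF3 by 0.12 for Hoxa7 and by -0.12 for Hoxb7; MEF3 read only 28.2 and 60.3 for them.

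Of the anterior genes, Hoxb2, which patterns the hindbrain, was lowest in the lines relative to the somatic cells. It read 71.4 to 411 in the CiPSC lines of set 1, against 2924 in MEF1, and 66.7 to 964 in those of set 2, against 637 in MNF, 4948 in MAF and 4783 in ADSC. ADSC CiPS2, at 964, lay above MNF but below its own population. The fitted difference was -3.44 with a standard error of 0.55 (limma adjusted p 3.42e-05). Hoxa4 (-1.96), Hoxa2 (-1.93), Hoxc4 (-1.86) and Hoxd4 (-1.55) were also called. Hoxc4 read 165 to 254 in the lines of set 1, against 956 in MEF1, and 211 to 455 in those of set 2, against 1061 in MNF, 114 in MAF and 2533 in ADSC, so MAF lay below the lines here too. Hoxb3, Hoxd3 and Hoxb1 were not called: Hoxb3 differed by -0.81 (SE 0.27), Hoxd3 by -0.53 (SE 0.28) and Hoxb1 by 0.03 (SE 0.26). Hoxb1, the earliest of the cluster to act in the hindbrain, read 136 to 193 in the lines of set 1, against 126 in MEF1, but 154 and 170 in CiPS WT1 and CiPS WT2, against 339 in WT MEF. In set 2 its groups overlapped, with 175 to 437 in the lines and 138 to 179 in the populations. Hoxd3 overlapped as well, at 383 to 509 in the lines of set 2 and 304 to 437 in the populations. For Hoxb3 the array holds a second probe, with values in sets 3 to 5, that read 67.3 and 63.1 in CiPS WT1 and CiPS WT2, against 369 in WT MEF, and 26.5 in the control line, against 132 in MEF3. The probe used in the fit, the one measured in more sets, read 114 and 132 in CiPS WT1 and CiPS WT2, against 167 in WT MEF, so that the 2 probes differ on Hoxb3.

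The posterior genes, used in the lumbar region, tail and distal limbs, were mixed. Hoxc10 read 63.1 to 108 in the lines of set 1, against 609 in MEF1, and 119 to 170 in the lines of set 2, against 805 in MNF, 64.5 in MAF and 123 in ADSC. Its fitted difference was -1.46 (SE 0.41, limma adjusted p 0.00695), and in set 2 MNF alone lay above all the lines. Hoxd10 fell by 1.03 (SE 0.26) on the log2 scale; it read 70.1 to 148 in the lines of set 1, against 431 in MEF1, and 115 to 184 in the lines of set 2, against 725 in MNF, 182 in MAF and 192 in ADSC. Hoxb9 was called at -1.25 (SE 0.35), but without set 5, where it read 92.5 in the control line against 2065 in MEF3, it was -0.76 and not called. Hoxd9 (-0.93, SE 0.32), Hoxa10 (-1.03, SE 0.50) and Hoxd13 (-1.29, SE 0.81) did not pass.

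Hoxc13, known for its role in hair and nails, ran the other way. It read 118 to 449 in the lines of set 1, against 116 in MEF1. In set 2 it read 143 to 387 in the lines, against 57.4 in MNF, 43.9 in MAF and 41.8 in ADSC. CiPS WT1 and CiPS WT2 read 95.6 and 193, against 44.3 in WT MEF, and the control line 236, against 129 in MEF3. Every CiPSC line was above every somatic sample of its set. The difference was 1.87 (SE 0.32, limma adjusted p 6.19e-05), and 2.00 without set 5. Hoxc11 was not called (0.89, SE 0.42). It read 82.3 to 161 in the lines of set 1, against 102 in MEF1, and 110 to 185 in the lines of set 2, against 65.8 to 102 in the populations. In set 5 it read 3301 in the control line, against 112 in MEF3, a difference of 4.88 where the fit without set 5 gave 0.28.

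The 14 genes that could not be tested have values in set 5 alone (Hoxa6, Hoxa13, Hoxb4, Hoxd11 and Hoxd12) or in sets 4 and 5. In set 4 both SKM-FSK lines lay over 2-fold under MEF2 for 6 of the 9 genes measured there, where 17.1% of all genes lay at least 2-fold lower in SKM-FSK1 and 17.6% in SKM-FSK2. Hoxa11, which patterns the forearm, read 38.8 and 36.3 in the SKM-FSK lines, against 1122 in MEF2. Hoxa9 read 21.9 and 73.3, against 690 in MEF2, and Hoxc9 65.5 and 51.1, against 916 in MEF2. Hoxa3 read 38.8 and 50.3, against 896 in MEF2. Hoxc5 and Hoxb8 read under 16 in both SKM-FSK lines, against 208 and 306 in MEF2. Hoxb13, a gene of the tail end, ran the other way and read 133 and 188 in the SKM-FSK lines, against 49.8 in MEF2. Hoxc12 read 22.7 and 25, against 22.3 in MEF2, and Hoxd1 35.5 and 27.4, against 42.4 in MEF2, both within 2-fold. In set 5, Hoxa13 was under 16 in every sample, and Hoxd1 too.

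Embryonic stem cells were set against the somatic cells in the same fit. In them 16 of 24 Hox genes were called lower and Hoxc13 higher, where 14.2% of all genes were called lower and 15.1% higher; without set 5 it was 15 lower and 1 higher of 24, where 14.6% and 15% of all genes were. All 8 middle genes were lower, with Hoxc6 at -4.80 (SE 0.81) and Hoxc8 at -3.93 (SE 0.67). Hoxa10 was called in ESC at -1.57, and Hoxd10 was not, at -0.83. Hoxc13 read 355, 187, 127, 689 and 942 in ESC1 to ESC5, against 116 in MEF1, 41.8 to 57.4 in the populations of set 2, 44.3 in WT MEF, 91.8 in MEF2 and 129 in MEF3. It was higher in ESC in all 5 sets, by 2.24 in the fit (SE 0.37, limma adjusted p 6.34e-05). The CiPSC and ESC comparisons share their somatic samples.

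OSKM iPSC had 2 samples, in sets 1 and 2, in which 18 Hox genes could be tested. Of these, 7 were called lower and none higher, where 9.96% of all genes were called lower and 12% higher. In limma 13 of the 18 had an unadjusted p under 0.05, 3 of them higher, against 33.5% of all genes in either direction. All 5 middle genes tested were lower: Hoxc8 (-3.56), Hoxc6 (-3.48), Hoxb5 (-3.11), Hoxb7 (-2.88) and Hoxd8 (-2.77). Hoxb2 read 122 in OSKM iPS1 and 221 in OSKM iPS2, against 2924 in MEF1 and 637 to 4948 in the populations of set 2, and was called at -3.57. Hoxa2, the other call, was lost without set 5 (-0.94), while Hoxb1 (1.09), Hoxc11 (1.14) and Hoxc13 (1.32) then passed as higher, where 12.3% of all genes were called lower and 14.7% higher. Hoxb1 read 400 and 336 in the OSKM lines, against 126 in MEF1 and 138 to 179 in the populations of set 2, so that the groups did not overlap.

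SKM-FSK iPSC had 2 lines in set 4, which holds 1 MEF sample, so their differences rest largely on MEF2. Of 24 Hox genes, 7 were called lower and Hoxc13 higher, where 7.98% of all genes were called lower and 7.44% higher; without set 5 it was 9 lower, with Hoxb7 and Hoxd8 added, and 1 higher, where 11.1% and 11.6% of all genes were called. Hoxa7, a middle gene, read 89.3 and 88.3 in the lines, against 2808 in MEF2, and was called at -4.81 (SE 0.99). Hoxc6 read 242 and 190, against 8532 in MEF2. Hoxa10, which patterns the lumbar region, read 70.7 and 66.6, against 923 in MEF2, and Hoxd4 read 88.3 and 64.0, against 489 in MEF2. All 4 were called, and read over 2-fold lower in both lines. Hoxc13 read 492 and 521, against 91.8 in MEF2. Without MAF 11 Hox genes were called lower, where 8.21% of all genes were, and without set 2 also 11 (8.87% of all genes). Without SKM-FSK1 it was 4 (3.65%), without SKM-FSK2 3 (3.48%) and without ESC4 4 (6.61%).

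Of the starting populations of set 2, lung fibroblasts stood apart in which clusters they used, while MNF and ADSC had genes above ESC2 in all 4. Lung fibroblasts had high Hoxa and Hoxb genes and Hoxc and Hoxd genes within 2-fold of ESC2 or below it: 4 of 4 Hoxa and 4 of 7 Hoxb genes lay at least 2-fold above ESC2, against 0 of 6 Hoxc and 0 of 4 Hoxd genes, where 20.1% of all genes did. Neonatal fibroblasts used all 4 clusters (3 of 4, 4 of 7, 4 of 6 and 3 of 4 genes, where 23.6% of all genes lay above ESC2). Adipose-derived cells had 3 of 4 Hoxa, 4 of 7 Hoxb, 3 of 6 Hoxc and 1 of 4 Hoxd genes above ESC2, where 18.7% of all genes did. With 1 sample a population there is no test. Of 21 Hox genes measured, 14 ranged at least 2-fold over the 3 populations, where 46.7% of all genes did, and 11 at least 4-fold, where 15.1% did. Against the mean of the other 2 populations, MNF had 6 Hox genes at least 2-fold higher and 6 lower (15.5% and 15.3% of all genes), MAF 5 and 7 (9.87% and 7.15%) and ADSC 8 and 1 (9.79% and 9.87%).

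In lung fibroblasts the 4 genes highest relative to the mean of the other populations were Hoxa5 (2.97 on the log2 scale), Hoxb5 (2.76), Hoxb6 (2.55) and Hoxb2. The lowest were Hoxc6 (-6.49), Hoxc8 (-5.29), Hoxd8 (-4.45) and Hoxc4 (-3.85). Hoxc4 read 114 in MAF, against 1061 in MNF and 2533 in ADSC. In neonatal fibroblasts Hoxc10 (3.17), Hoxc6 (2.47), Hoxd8 (2.33) and Hoxd9 (2.04) were highest. Hoxd9, which acts in the limb and lumbar region, read 575 in MNF, 85.8 in MAF and 230 in ADSC. Hoxa5 (-4.07), Hoxb6 (-3.52), Hoxb2 (-2.93) and Hoxa4 (-2.39) were lowest in MNF, and Hoxa4 read 174 there, against 930.5 in MAF and 896 in ADSC. In adipose-derived cells Hoxc6 (4.02), Hoxc8 (3.53), Hoxc4 (2.86) and Hoxd8 (2.12) were highest, and of the lowest only Hoxb5 (-1.45) was past 2-fold; Hoxd10 (-0.92), Hoxc10 (-0.89) and Hoxa2 (-0.58) were not. The 3 populations thus had different leading genes, while MNF and ADSC shared Hoxc6 and Hoxd8 above MAF.

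**Figure D2:**
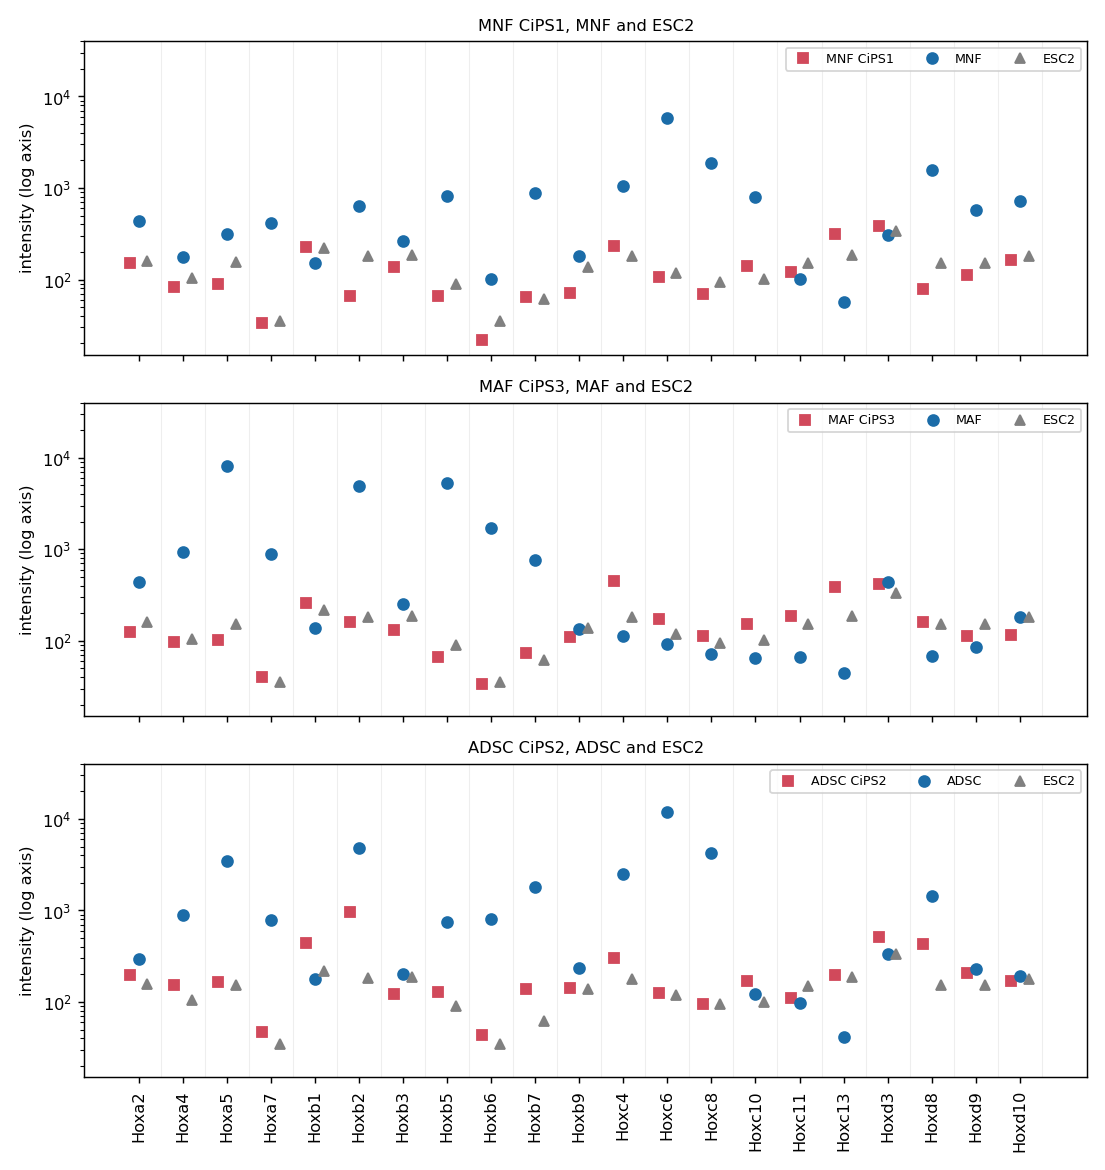
Intensity (log axis) of the 21 Hox genes measured in set 2, for each CiPSC line (square), its starting population (circle) and ESC2 (triangle), 1 sample each. The circles show high Hoxa and Hoxb genes in MAF, where Hoxc and Hoxd genes lie near the triangle, and high Hoxc6 and Hoxc8 in MNF and ADSC; most squares lie near the triangles.

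Markers of other cell types also differed between these samples, and their part in the Hox levels was not tested. MNF held Krt14, a basal keratinocyte keratin, at 55220, against 455 in MAF and 532 in ADSC. The summed epithelial list was 58430 in MNF, against 1596 and 5783, and most of the MNF sum was Krt14. Krt5, Epcam and Cdh1 were also highest in MNF, with Krt5 at 2397, against 125 in MAF and 128 in ADSC. Krt8 and Cldn4 were lowest in MNF, with Krt8 at 254, against 681 in MAF and 4569 in ADSC. MAF held Sftpc, a marker of alveolar epithelium, at 5425, against 72.6 in MNF and 34.2 in ADSC, and its summed macrophage list was 11920, against 758 and 2186. Of the fat-cell list, summed at 5737 in ADSC, 47010 in MNF, 5469 in MAF and 3686 in ESC2, most was Lpl, a lipase that other cells also express, at 4815, 45640, 4414 and 2139. The other 5 genes measured summed to 922 in ADSC, 1373 in MNF and 1055 in MAF, against 1548 in ESC2, and in ADSC Adipoq, the gene of the fat-cell hormone adiponectin, read 33.0, against 40.35 in ESC2. The summed fibroblast list was 218600 in MNF, 145700 in MAF and 114000 in ADSC, against 3921 in ESC2.

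The Hox pattern of MEF recurred in sets 1, 3 and 4, and in part in set 5. Of 18 Hox genes measured in sets 1, 3 and 4, 8 were at least 2-fold above the ESC of their set in all 3 MEF: Hoxa4, Hoxb2, Hoxb7, Hoxc4, Hoxc6, Hoxc8, Hoxc10 and Hoxd8. Of all genes 9.67% were. In MEF3, 7 of these 8 were also at least 2-fold above ESC5, all but Hoxb7, where 31.9% of all genes were. Over sets with values in at least 3 MEF, set 5 included, 10 of 24 Hox genes were above ESC in every one, where 6.37% of all genes were. In MEF2, whose set holds 33 Hox genes, 8 of 8 Hoxa, 5 of 9 Hoxb, 6 of 9 Hoxc and 2 of 7 Hoxd genes lay at least 2-fold above ESC4, where 17.3% of all genes did. In MEF1 the counts were 2 of 2, 3 of 6, 4 of 6 and 2 of 5 against ESC1 (18.5% of all genes), and in WT MEF 4 of 4, 4 of 7, 4 of 6 and 3 of 6 against ESC3 (17.5%). In MEF3 they were 3 of 10, 5 of 10, 5 of 9 and 6 of 9 against ESC5, where 31.9% of all genes lay higher. Set 4 shows posterior genes that the earlier sets lack: Hoxa11 read 1122 in MEF2, against 149 in ESC4, Hoxc9 916, against 110, and Hoxa9 690, against 103. Set 5 did not repeat all of this. Of 20 Hox genes at least 2-fold above ESC in each of sets 1, 3 and 4 that measured them, 11 were so in MEF3 and 2 were at least 2-fold below ESC5.

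**Figure D3:**
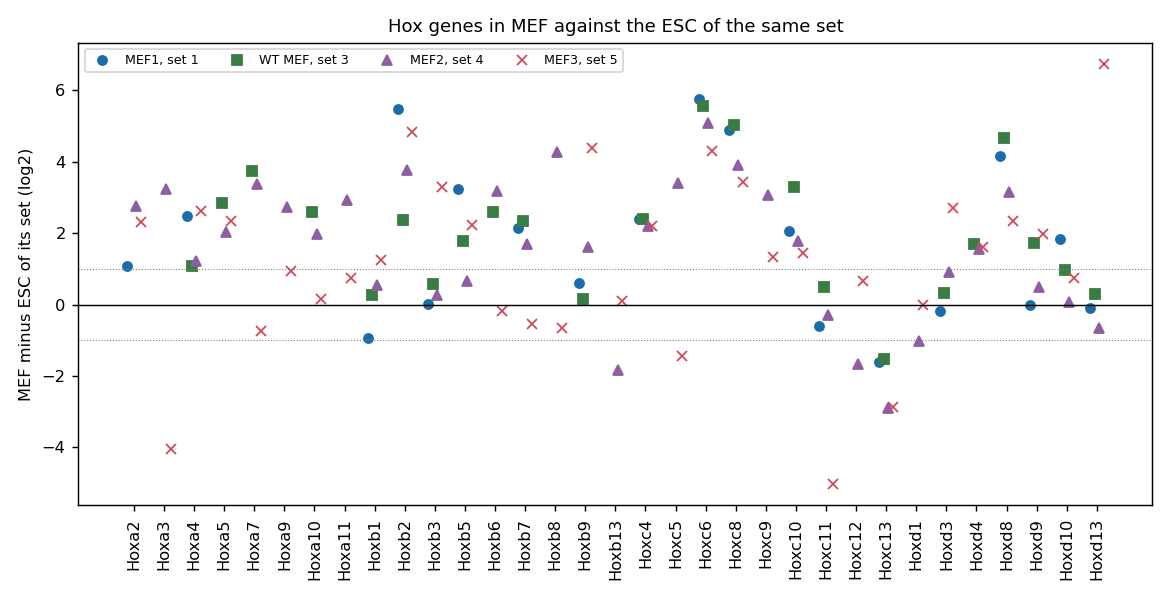
Log2 difference (y axis) of each MEF sample and the ESC of its set for the 33 Hox genes with values in 2 or more sets (x axis); dotted lines mark 2-fold. MEF1, WT MEF and MEF2 fall on the same side for Hoxc6, Hoxc8, Hoxd8 and Hoxb2, and MEF3 departs for genes such as Hoxa3, Hoxa7 and Hoxd13.

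Hox genes of the CiPSC lines were then set against ESC, to see what of the starting cells' pattern was left. No Hox gene was called between CiPSC and ESC (0 of 24 in limma; 0.0303% of all genes were called, 5 of 16497), and none of the 24 had an unadjusted p under 0.05, against 4.99% of all genes. Without set 5 it was 0 of 22, with 0.0338% of all genes called. Fitted differences ran from -0.44 (Hoxb7, SE 0.44) to 0.66 (Hoxc6, SE 0.78), with a median standard error of 0.47 that bounds what could be seen. The fit shares 1 spread over all classes, so variation among the somatic cells also enters these standard errors. They were 0.72 for Hoxa5 and 0.65 for Hoxc8, against 0.29 for Hoxb1. The 0 of 24 therefore does not place Hox genes closer to ESC than other genes. Single lines departed from their ESC by more. In set 5 the control line read 98.8 for Hoxd13, against a value listed at 0.1 in ESC5, and lay below ESC5 for Hoxc13 (236 against 942), Hoxd8 (93.3 against 348) and Hoxa3 (71.6 against 262). CiPS WT1 and CiPS WT2 had 7 and 6 of 23 Hox genes at least 2-fold above ESC3, where 5.88% and 6.21% of all genes were. Hoxc6 read 648 and 573 in them, against 71.5 in ESC3, and Hoxc8 358 and 323, against 74.9 in ESC3. Hoxb2 read 412 and 633, against 182 in ESC3. Both lines were over 4-fold under WT MEF for the Hoxc genes and less than 3-fold under it for Hoxb2, which read 944 there.

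In the same lines 13 and 14 of 16 fibroblast markers were at least 2-fold above ESC3. Their summed intensity was 60720 and 70390, against 22330 in ESC3 and 278500 in WT MEF. The excess over ESC3 was 14.99% and 18.8% of that of WT MEF for the summed markers, and 17.6% and 15.3% for Hoxc6. For Hoxc8 it was 11.9% and 10.4%, for Hoxd8 4.51% and 3.53%, and for Hoxb2 30.1% and 59.2%. The part of fibroblasts, feeders included, in these Hox levels was not tested.

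In other lines single Hox genes stood out, and the part of fibroblasts in their levels was not tested either. CiPS34 had Hoxb2 at 411, against 65.3 in ESC1 (2.65 on the log2 scale), and Hoxd8 at 223, against 94.3 in ESC1, while 0 of 6 fibroblast markers were 2-fold above ESC1. ADSC CiPS2 had Hoxb2 at 964, against 182 in ESC2, Hoxd8 at 427, against 153, and Hoxb7 at 138, against 61.7; 3 of 10 markers were above. These 3 genes were also high in ADSC, at 4783, 1434 and 1824. Hoxb2 was likewise high in MAF (4948) and Hoxd8 in MNF (1584). Hoxc6 and Hoxc8, the genes highest in ADSC relative to the other populations, read 126 and 95.1 in ADSC CiPS2, against 118 and 94.7 in ESC2. OSKM iPS2 had Hoxa7 at 142, against 35.1 in ESC2, Hoxc6 at 351, against 118, and Hoxa4 at 241, against 105, with 2 of 10 markers above. In all, 2 of 19 Hox genes lay at least 2-fold above ESC in CiPS34 (12.4% of all genes), 3 of 21 in ADSC CiPS2 (5.13%) and 3 of 21 in OSKM iPS2 (9.05%). In set 1, MNF CiPS7 had 1 of 19 Hox genes at least 2-fold above ESC1 (8.87% of all genes) and CiPS50, CiPS21 and OSKM iPS1 had 0 (7.9%, 7.67% and 5.87%). In set 2, MAF CiPS3 had 2 of 21 above ESC2 (8.74%) and MNF CiPS1 and CiPS45 had 0 (14.6% and 6.58%). SKM-FSK1 and SKM-FSK2 had 1 and 2 of 33 above ESC4 (3.49% and 3.93%), and the control line 1 of 38 above ESC5 (6.73%). The SKM-FSK lines had 7 of 33 Hox genes each at least 2-fold below ESC4, where 3.39% and 4.01% of all genes were. The control line likewise had 7 of 38 at least 2-fold below ESC5 (8.53% of all genes), and the other 12 lines 0 to 2 (2.87% to 11.9% of all genes). In the SKM-FSK lines Hoxa7 read 89.3 and 88.3, against 270.3 in ESC4, and Hoxa11 38.8 and 36.3, against 149 in ESC4. MAF CiPS3 had 6 of 10 fibroblast markers at least 2-fold above ESC2, yet Hoxa5 read 102, against 154 in ESC2, and Hoxb5 65.8, against 90.2, both among the highest genes of MAF. Its largest Hox excess was Hoxc4, at 455 against 181 in ESC2, a gene at 114 in MAF.

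**Figure D4:**
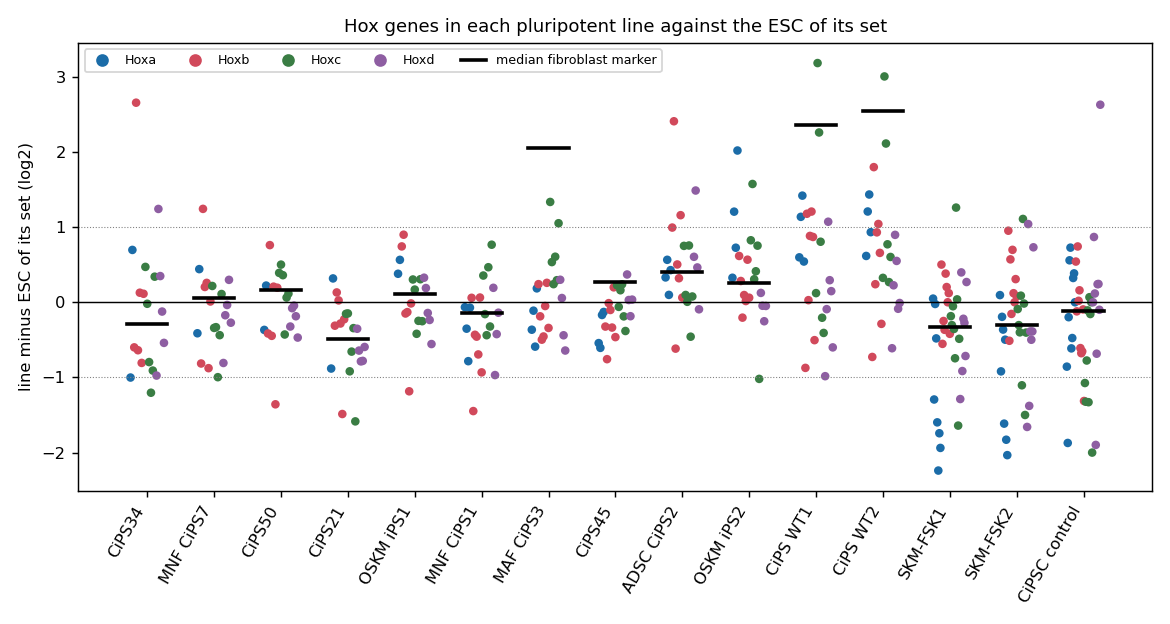
Log2 difference (y axis) of each induced line and the ESC of its set (x axis) for each Hox gene measured (points, coloured by cluster), with the median fibroblast marker as a black bar; dotted lines mark 2-fold. Hoxc6 is the top point of CiPS WT1 and CiPS WT2, whose marker bars are also raised, and Hoxb2 that of CiPS34 and ADSC CiPS2.

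Whether a line resembled its own starting population was described by the correlation over 21 Hox genes in set 2, with lines and populations each centred on their mean. The points share arrays and probes, and the 3 lines and 3 populations are single samples. MNF CiPS1 correlated at 0.29 with MNF, 0.02 with MAF and -0.43 with ADSC. MAF CiPS3 correlated at -0.47 with MAF, 0.27 with MNF and 0.46 with ADSC. ADSC CiPS2 correlated at 0.08 with ADSC, 0.23 with MAF and -0.35 with MNF. The own population came first for 1 of the 3 lines, and the mean own correlation minus the mean of the others was -0.06. Both values take ADSC CiPS2 as an ADSC line; were it from lung fibroblasts, as another field of the labels has it, the own population would come first for 2 of the 3.

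The time course of set 5 had 1 sample a day and no test. Over all 38 Hox genes, 9 were at least 2-fold lower and 7 higher on day 12 than in MEF3, where 25.9% and 20.5% of all genes were, so the shares were near the background. Day 20 gave 10 lower and 8 higher (27.2% and 21.4% of all genes) and day 32 gave 14 and 11 (29.7% and 24%). The control line had 20 of 38 Hox genes at least 2-fold below MEF3 and 4 above (30.2% and 23.6% of all genes). It had 18 at least 2-fold below day 32 and 4 above, where 15.9% and 17.1% of all genes were. The 11 Hox genes that lay at least 2-fold above ESC in MEF3 and in every other MEF measured were followed further; they were chosen after their values were seen, and partly on MEF3. On day 12, 5 of the 11 were at least 2-fold below MEF3 (median -0.84 on the log2 scale), on day 20 and on day 32 7 each (median -1.18 and -1.28). On day 32, 7 were still at least 2-fold above ESC5, as were 17 of all 38 Hox genes and 16.3% of all genes; the 11 had been picked for lying above ESC5 in MEF3. In the control CiPSC line 9 of the 11 were at least 2-fold below day 32 (median -1.93). The median difference between the line and day 32 was thus larger than that between day 32 and MEF3, but not for each gene. Hoxa2 differed by -2.07 between day 32 and MEF3 and by -1.09 between the line and day 32. For Hoxa4 these were -2.29 and -0.535, and for Hoxd4 -1.38 and -0.12. When the genes fell was not tested.

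Hoxc6 read 5746 in MEF3, 3699 on day 12, 2366 on day 20, 2369 on day 32, 169 in the control line and 290 in ESC5. Hoxd8 read 1770 in MEF3, 1629, 1217 and 1627 on the 3 days, and 93.3 in the control line. Hoxc8 read 1443 in MEF3, 999, 994 and 555 on the 3 days, and 124 in the control line. All 3 were still at least 2-fold above ESC5 on day 32. Hoxb2 read 5230 in MEF3, 1097, 808 and 1742 on the 3 days, and 169 in the control line. Hoxa4 read 583 in MEF3, 105, 104 and 120 on the 3 days, and 82.5 in the control line. These 2 of the 11 were the lowest on day 12 relative to MEF3 (-2.25 and -2.47). Hoxb9, outside the 11, read 2065 in MEF3, 1228, 1530 and 4385 on the 3 days, and 92.5 in the control line. Summed fibroblast markers were 216500 in MEF3, 355800, 294900 and 221800 on the 3 days, and 27740 in the control line.

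**Figure D5:**
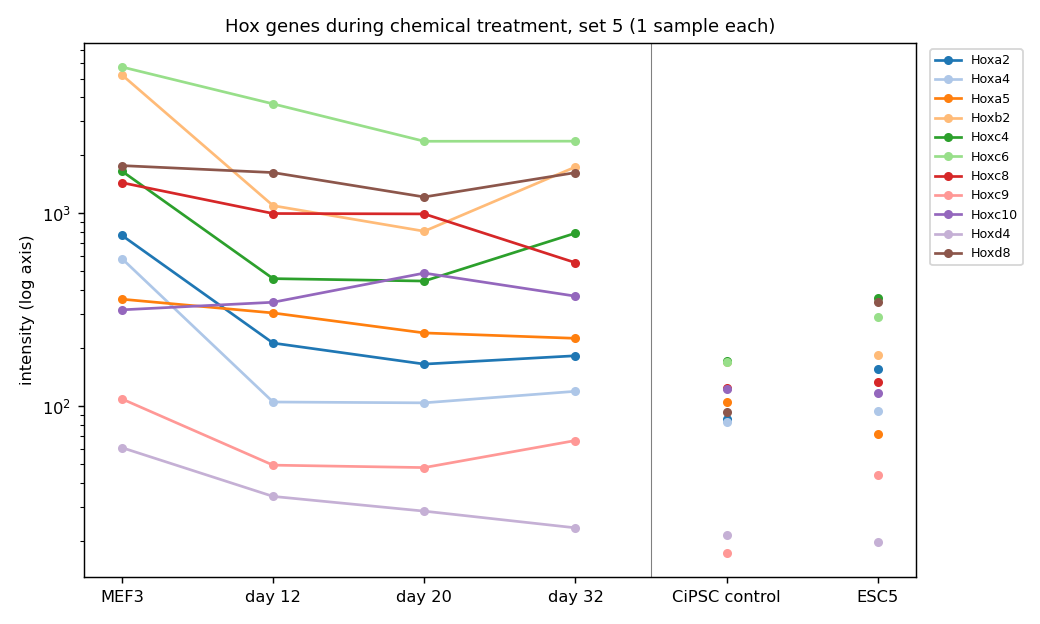
Intensity (log axis) of the 11 Hox genes above ESC in every MEF measured, in MEF3, on days 12, 20 and 32 of chemical treatment, in the control CiPSC line and in ESC5, 1 sample each. Hoxc6 lies at 2369 and Hoxd8 at 1627 on day 32, and at 169 and 93.3 in the control line.

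Other genes were higher on day 12. Among those with at least 16 in MEF3, the largest differences were those of Hoxd11 (4.39 on the log2 scale), Hoxc11 (3.37) and Hoxa6 (3.08), and Hoxb4, listed near 0 in MEF3, has no measured difference. Hoxd11, a forearm and digit gene, read 55.3 in MEF3, 1161, 1511 and 1376 on the 3 days, and 19.3 in the control line. Hoxc11 read 112 in MEF3, 1157, 1117 and 1225 on the 3 days, and 3301 in the control line, while its highest value in sets 1 to 4 was 254, in OSKM iPS2. Hoxb4 was listed at 0.17 in MEF3, at 163, 175 and 362 on the 3 days, at 500.0 in the control line and at 493 in ESC5. Hoxa6 read 53.1 in MEF3, 449, 525 and 371 on the 3 days, 2230 in the control line and 1348 in ESC5, so that both genes were higher in the pluripotent samples than in MEF3. Hoxd11, Hoxb4 and Hoxa6 have values in set 5 alone, so no other MEF bears on them. Of the 4 genes lowest on day 12, besides Hoxa4 and Hoxb2, Hoxd13 read 1711 in MEF3 and 360 on day 12 and was listed at 0.1 on days 20 and 32, and Hoxb13 read 187 in MEF3, 44.3 on day 12, 331 on day 20 and 364 on day 32. Hoxa3 read 13.7 in MEF3 and 1697 on day 32, against 896 in MEF2 of set 4.

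Cofactors and regulators of the clusters were read from lists chosen by function. Of the TALE cofactors, which bind DNA together with Hox proteins, 1 of 6 tested fell in CiPSC and 1 rose. Meis1 fell by 4.08 on the log2 scale (SE 0.34) and read 86.3 in MNF CiPS1, 167 in MAF CiPS3 and 238 in ADSC CiPS2, against 3790 in MNF, 5874 in MAF and 2600 in ADSC. Pbx4 was higher by 2.42 (SE 0.32). Of the noncoding RNAs of the clusters and the neighbouring Evx genes, 1 of 4 fell, the antisense Hoxaas3 (-1.74, SE 0.38), and none rose. Of the caudal and ParaHox genes, regulators and relatives of the Hox genes, 0 of 4 were called, although in limma Pdx1 had an adjusted p of 0.0121 with a difference of -0.77. As before, 13.2% of all genes were called lower and 14.8% higher.

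On the chromatin side both arms had members that rose. Of 18 Polycomb genes, which keep Hox clusters silent, 8 rose and 3 fell in CiPSC; the largest were Cbx7 (5.34, SE 0.30), Mtf2 (3.74, SE 0.38), Jarid2 (3.35, SE 0.29) and Ezh2 (2.70, SE 0.38), the last the methyltransferase of histone H3. Phc2 (-2.18), Phc3 (-1.22) and Cbx6 (-1.20) fell. In the list of 12 genes of the Trithorax side, which keeps Hox genes active, 4 rose and none fell: Wdr5 (2.55, SE 0.25), Dpy30 (2.33, SE 0.20), Psip1 (1.69, SE 0.39) and Kdm6a (1.15, SE 0.36). The median of the Polycomb list was 0.81 and that of the Trithorax list 0.94, against -0.11 over all genes. Of 13 genes of the retinoic acid pathway, which induces Hox genes in the embryo, 6 fell and none rose. Those with the largest change were Aldh1a1 (-2.48, SE 0.64) and Rdh10 (-2.24, SE 0.53), enzymes of retinoic acid synthesis, Rxra (-2.22, SE 0.27), a nuclear receptor, and Crabp1 (-1.92, SE 0.45), a binding protein. Of 38 other transcription factors of position, such as those of limb and trunk, 21 fell and 3 rose. Zic1 (-4.72, SE 0.41), Irx1 (-4.50, SE 0.77), Prrx1 (-4.43, SE 0.86) and Twist2 (-4.19, SE 0.51) fell most, and Otx2, a head and epiblast gene, rose by 3.16 (SE 0.62). Against ESC, 0 genes of any of these 7 lists were called in CiPSC, where 0.0303% of all genes were (5 of 16497). The 0 therefore does not set these lists apart from other genes. Without set 5, Trithorax genes counted 6 higher and 0 lower of 11, Polycomb genes 8 and 4 of 18, retinoic acid genes 0 and 6 of 13, the other factors of position 2 and 17 of 34, and TALE genes 1 and 1 of 6; Hoxaas3 could not be fitted.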

How the data were processed

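The 30 samples were measured on Phalanx Mouse OneArray v2 arrays with Cy5-labelled total RNA, per the labels. The deposited values are linear intensities, 1 column per sample, in 5 sets that the authors normalized separately, as the column headers and the series' design text show; the method of normalization, the background correction and how the 2 or 3 replicate arrays were combined are details not given in the sources used here. Arrays carry no read depth, and their small number limits the precision.

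Of 26423 probes, 21876 have a gene in the platform annotation, 21825 of them matched to RefSeq by gene ID. A gene with several probes was taken from the probe measured in most samples (then the highest mean). Values under 16 were raised to 16 and log2 taken. A gene entered a comparison with values in at least 2 sets holding both groups (1 for SKM-FSK) and 3 residual degrees of freedom. All samples were fitted in limma 3.58.1 (R 4.3.3) with lmFit and eBayes, cell class and set as terms, and p-values were adjusted over all genes tested. The fit was also run on simulated independent values. These held no set shifts, floor or unequal spread between classes, so that run does not bear on such features of the data. Other tables used pandas 2.3.3 on Python 3.11.15. Samples are single lines or cultures, so the p-values measure the spread between them, and labels do not say that somatic samples of a kind are separate animals.

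The line numbers in the titles name lines and do not pair samples. Set, not sample, was the block of the design. Genes whose values are given were all Hox genes by a fixed rule: the 12 measured in most sets with the highest mean, up to 4 in each direction for each population of set 2 and for day 12, all called higher, up to 6 with the largest difference of CiPSC and ESC within a set, and up to 4 called members in each direction of any other list; further Hox genes named beside a count were chosen after their values were seen. The members and the lists were chosen with earlier results of these data known. Alternatives changed the floor, normalization, filter, probe choice, set term, somatic and ESC samples, variance prior and call rule, and left out each sample and each set. Promoters came from a RefSeq table on GRCm38.p6 that holds 22 of the 38 genes.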

Additional observations from a re-analysis of the deposited data

Results flagged for a closer look

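Hox genes were compared over the samples of a group for values that lie far from the rest, in 40 groups of 4 to 10 samples, each sample as a log2 difference to the ESC of its set. In 6 groups 1 sample stood apart, where chance gives about 1 in 20 for independent values. Lines of a set share their ESC and the same samples recur over the groups, so that rate does not strictly apply here. Hoxb1 was 0.54 in the control CiPSC line, against -0.87 to -0.31 in the other 6 CiPSC lines from MEF. Hoxc4 was -1.07 in the control line, against -0.15 to 0.47 in the others. Hoxd13 was 2.63 in the control line, against -0.60 to -0.01 in the others; since ESC5 was listed at 0.1 and raised to 16, the 2.63 is set by that floor. Hoxd10 was -0.78 in CiPS21, against -0.19 to 0.24 in the others. Hoxb3 was 3.30 in MEF3, against 0.02 to 0.58 in the other 3 MEF, and Hoxd13 was 6.74 in MEF3, against -0.66 to 0.30, a size set by the same floor, since Hoxd13 read 1711 in MEF3 and was listed at 0.1 in ESC5. Of the 6 samples, 5 belong to set 5.

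Both Hox genes with a second probe gave signal there that entered no comparison. The second probe of Hoxb3 read 369 in WT MEF, against 22.5 in ESC3 (4.03 on the log2 scale), 2809 in MEF2, against 40.3 in ESC4 (6.12), and 132 in MEF3, against 14.1 in ESC5 (3.04 with values under 16 raised to 16). The probe used in the fit gave 0.58, 0.27 and 3.30. The second probe of Hoxc8 gave 1.42 in MEF1, 1.72 in WT MEF, 3.18 in MEF2 and 3.17 in MEF3, against 4.89, 5.04, 3.92 and 3.43 with the probe used. Why the probes differ was not tested.

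For 3 genes 1 MEF or population lay at least 2-fold below the ESC of its set and another at least 2-fold above, a difference that was not tested. Hoxa3, at 13.7 in MEF3 and likewise raised to 16, was -4.03 in MEF3 and 3.24 in MEF2. Hoxc5 was -1.45 in MEF3 and 3.40 in MEF2. Hoxd8 was -1.15 in MAF and 3.38 in MNF.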

How the results depend on the processing

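Counts are Hox genes called lower against the somatic cells. The share of all genes called lower also moved between settings, so a changed count is not by itself a change in the Hox genes. Over the alternative settings, of 2171 refits of single called genes 2092 kept their call, 79 lost it and 0 changed sign. With only genes measured in all 5 sets, which tests fewer genes, ESC had 10 called lower, against 16, and SKM-FSK iPSC 4, against 7. With MEF as the only somatic samples SKM-FSK iPSC had 11. Without set 2 it also had 11 of 24, where 8.87% of all genes were called lower, against 7.98% in the main fit. The cause was not tested. Leaving out 1 sample at a time gave 14 to 17 for CiPSC, 14 to 17 for ESC, 6 to 9 for OSKM iPSC and 3 to 11 for SKM-FSK iPSC, and 0 to 0 between CiPSC and ESC. With the line numbers as a random replicate block, whose consensus correlation was 0.13, the counts were 16, 16, 7 and 8, and 0 between CiPSC and ESC, so no count moved by over 1.5 times. The numbers do not pair samples, since they name lines of different cells and cocktails. The call of Hoxb9 rested on set 5. Dim values limit set 5, where 18.6% of values were under 16, and with 1 sample a population or a day, set 2 and the time course have no measure of error.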

Other observations

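Positional transcription factors outside the Hox clusters also differed between the starting populations of set 2. Of 34 measured, 21 ranged at least 2-fold and 11 at least 4-fold over MNF, MAF and ADSC, where 46.7% and 15.1% of all genes did. Tbx15, a T-box factor of trunk skin, read 19420 in MNF, 115 in MAF and 41.8 in ADSC. Irx1 read 13730 in MNF, 250.3 in MAF and 174 in ADSC, and En1, a factor of ventral limb ectoderm and of part of the trunk skin, 4631, 96.1 and 274. Of the 3 populations MNF had the highest level of each. MEF of sets 1, 3 and 4 held them too: MEF1, WT MEF and MEF2 read 8029, 3104 and 16380 for Tbx15, 10860, 7564 and 6996 for Irx1 and 1273, 818 and 1374 for En1. In set 5, MEF3 read 1467 for Tbx15, 933 for Irx1 and 366.5 for En1, against 206, 136 and 1234 in ESC5, so En1 was lower in MEF3. In lung fibroblasts Tbx4, a factor of lung and hindlimb mesenchyme, read 3230, against 81.8 in MNF and 44.9 in ADSC. Foxf2, a factor of visceral mesenchyme, read 1666 in MAF, against 185 in MNF and 471 in ADSC. Aldh1a2, an enzyme of retinoic acid synthesis, read 2452 in MAF, 816.5 in ADSC and 81.2 in MNF. In the CiPSC lines of set 2, Tbx15 read 67.8 to 179, Irx1 43.3 to 158 and Foxf2 148 to 206. Of 13 retinoic acid genes 6 ranged at least 4-fold over the populations, of 18 Polycomb genes 3, of 6 TALE genes 1 and of 11 Trithorax genes 0.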
